A study of Mus musculus with 6 samples.

Results

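Collagen genes outside the basement membrane were examined in 6 mouse brain tumours, 3 of each of 2 Olig2 genotypes. The members were the probes of an Illumina mouse bead array whose platform gene symbol has the form of a collagen chain (Col, a number, a, a number), without Col4a1 to Col4a6, Col15a1 and Col18a1. This gave 46 of 25697 probes, which name 29 of 16593 genes. All tumours grew in the brains of SCID mice, a strain without an adaptive immune system, from transplanted cells with floxed p53 alleles (p53fl/fl) and the human EGFRvIII receptor gene (hEGFRvIII), a constantly active EGF receptor of glioma. The cells carried cre at 1 Olig2 allele (Olig2cre/+) or at both (Olig2cre/cre), so cre acts where the Olig2 promoter is active, and tumours were taken when neurological symptoms appeared. The labels give ages of 45, 50 and 47 days for tumours 1, 2 and 3 of each genotype. Separate lines or clones are not named for the tumours within a genotype. The p-values therefore measure only the spread among the 6 tumours, part of which may be technical. The authors' second table holds numbers 1 and 3 exchanged, which leaves the ages of 45 and 47 days uncertain for them. The question for each collagen is whether its expression differs once no Olig2 allele is left intact.

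Collagens are secreted or membrane proteins built from 3 chains wound into a triple helix. Fibrillar collagens (types I, II, III, V, XI, XXIV and XXVII) form the fibres of connective tissue and cartilage. Fibril-associated collagens (FACIT, such as types IX, XVI and XIX) lie on or near fibrils, type VI forms beaded filaments around cells, and transmembrane collagens sit in the plasma membrane. Normal brain tissue holds little fibrillar collagen, most of it in meninges and around larger vessels.

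Olig2 encodes a basic helix-loop-helix factor, a family that binds E-boxes. The promoters of 3 collagens, picked after their values were seen, are shown with every E-box (CANNTG, which reads the same on both strands) in capitals. They are Col24a1, the collagen that passed the threshold downwards, Col23a1, the collagen with the largest difference, and Col16a1, a FACIT gene with lower values in every Olig2cre/cre tumour. Col23a1 and Col16a1 did not pass the threshold. For Col26a1, the collagen that passed upwards, no promoter was available. The sequences are from RefSeq on the build GRCm38.p6, on the plus strand, from 250 bases before the gene's start to 50 after it. They lie at chr3:145292222-145292521 for Col24a1, at chr11:51289670-51289969 for Col23a1 and at chr4:130047590-130047889 for Col16a1.
Col24a1: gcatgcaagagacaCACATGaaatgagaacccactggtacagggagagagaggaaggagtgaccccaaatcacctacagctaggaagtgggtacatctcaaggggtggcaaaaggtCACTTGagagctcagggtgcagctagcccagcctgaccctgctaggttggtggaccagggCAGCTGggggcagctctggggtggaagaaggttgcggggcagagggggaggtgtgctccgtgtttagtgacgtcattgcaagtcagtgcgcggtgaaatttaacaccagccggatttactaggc
Col23a1: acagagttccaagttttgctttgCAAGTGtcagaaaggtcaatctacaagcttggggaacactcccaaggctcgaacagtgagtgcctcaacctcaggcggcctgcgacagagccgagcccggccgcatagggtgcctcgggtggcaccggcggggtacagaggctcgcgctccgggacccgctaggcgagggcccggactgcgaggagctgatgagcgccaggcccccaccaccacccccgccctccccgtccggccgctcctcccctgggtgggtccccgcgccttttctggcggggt
Col16a1: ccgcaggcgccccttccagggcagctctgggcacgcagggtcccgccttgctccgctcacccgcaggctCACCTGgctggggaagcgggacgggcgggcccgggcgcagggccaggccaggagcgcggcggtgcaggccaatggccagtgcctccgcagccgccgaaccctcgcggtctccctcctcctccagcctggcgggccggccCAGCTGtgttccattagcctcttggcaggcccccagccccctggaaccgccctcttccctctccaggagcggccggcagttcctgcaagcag
The Col24a1 window held 3 matches, whose first bases lie at -236, -134 and -74 from the start. Col16a1 held 2, at -181 and -42, and Col23a1 held 1, at -227. Of all 32851 promoters of this length, 72.3% held at least 1 match, and of the 25 promoters of the 23 collagen genes in the table, 15 did. The narrower form CAGATG or its reverse complement, which is part of CANNTG, was in 17.2% of all promoters and in 3 of the 25 collagen promoters, none of them among the windows shown. A CCAAT box was in Col16a1 at -113, and in 37.4% of all promoters on either strand. These matches describe the letters of the windows and show no binding.

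Values below are log2 intensities after background correction and quantile normalization, where a difference of 1 is a doubling, and a probe counts as detected on an array where its detection p-value is under 0.05. Arrays had between 53.4% and 57.6% of all probes detected. Over the tested probes, the Olig2cre/+ tumours correlated at 0.943 to 0.980 with each other and the Olig2cre/cre tumours at 0.886 to 0.928. Between the genotypes, Olig2cre/cre tumour 1 correlated at 0.766 to 0.837 with the Olig2cre/+ tumours, tumour 2 at 0.830 to 0.890 and tumour 3 at 0.914 to 0.941. The Olig2 probe itself read 7.76, 7.85 and 7.13 in the Olig2cre/+ tumours and 6.41, 5.86 and 6.44 in the Olig2cre/cre tumours, with a limma adjusted p of 0.0555. The position of this probe relative to the cre insertion was not checked here.

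Most collagen genes outside the basement membrane were weakly measured or not detected. Of the 29 genes, 7 were detected on all 6 arrays, 16 on 1 to 5 arrays and 6 on no array. Per array, 14 to 17 of the 29 genes were detected, with 16, 14 and 15 in the Olig2cre/+ tumours and 15, 17 and 16 in the Olig2cre/cre tumours. The number of detected collagens thus overlapped between the genotypes. Of the 29, 6 were detected on at least 1 Olig2cre/cre array and on no Olig2cre/+ array, and 3 the other way round, against 4.72% and 4.04% of all 16593 named genes. Such counts include single crossings of the detection limit, as Col14a1 and Col17a1 were each detected on 1 array at detection p-values of 0.0414 and 0.0263. The 6 were Col1a1, Col3a1, Col6a2, Col14a1, Col17a1 and Col28a1, and the 3 were Col24a1, Col19a1 and Col8a2.

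**Figure D1:**
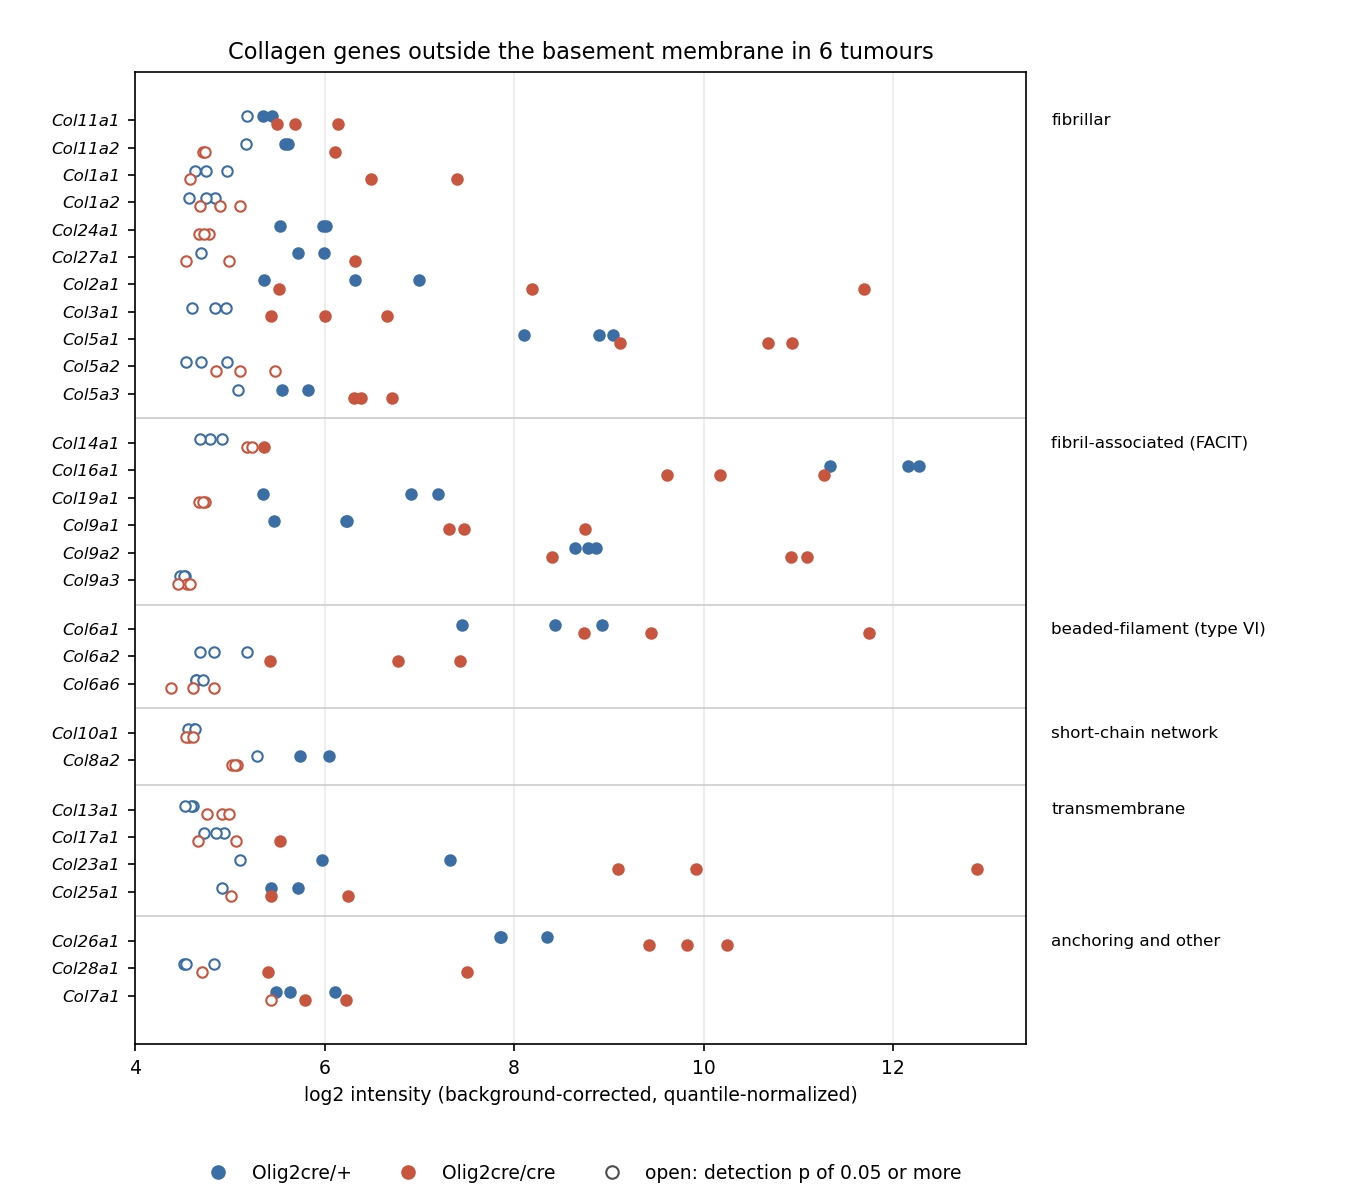
Log2 intensity (x axis, background-corrected and quantile-normalized) of each of the 29 collagen genes (rows, by class) in the 3 Olig2cre/+ tumours (blue) and the 3 Olig2cre/cre tumours (red), with open points where the probe was not detected. The tested probe with the highest mean stands for a gene, or its brightest probe where none was tested. Col26a1 and Col23a1 have all red points to the right of all blue points, and Col16a1, Col19a1 and Col24a1 all red points to the left.

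Of the 18 genes with a probe detected on at least 3 of the 6 arrays, which were the ones tested, 1 rose and 1 fell in Olig2cre/cre. Over all 9998 genes tested the same rule called 2.83% higher and 1.95% lower, so these counts lie close to the background. Over all 14606 probes tested, 4.42% passed in either direction. Without overlap between the groups, 8 of the 18 were higher and 3 lower, where 16.1% and 16.4% of all genes tested were. The filter on detection bears on this count, since Col3a1 and Col6a2 (higher) and Col24a1 and Col19a1 (lower) passed it through 1 group alone. Among the other 14, which were detected in both groups, 6 were higher and 1 was lower without overlap. The share over all genes detected in both groups was not worked out. Such genes made up 9794 of the 9998 genes tested, so the nearest background is the 16.1% and 16.4% over all genes tested. The median difference over the 18 was 1.11, or 0.84 with those 4 genes at their bound, against 0.00 over all genes tested. In all, 13 of the 18 had a higher mean in Olig2cre/cre and 5 a lower one. In bulk tissue, fewer cells of a type and less RNA per cell cannot be told apart.

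**Figure D2:**
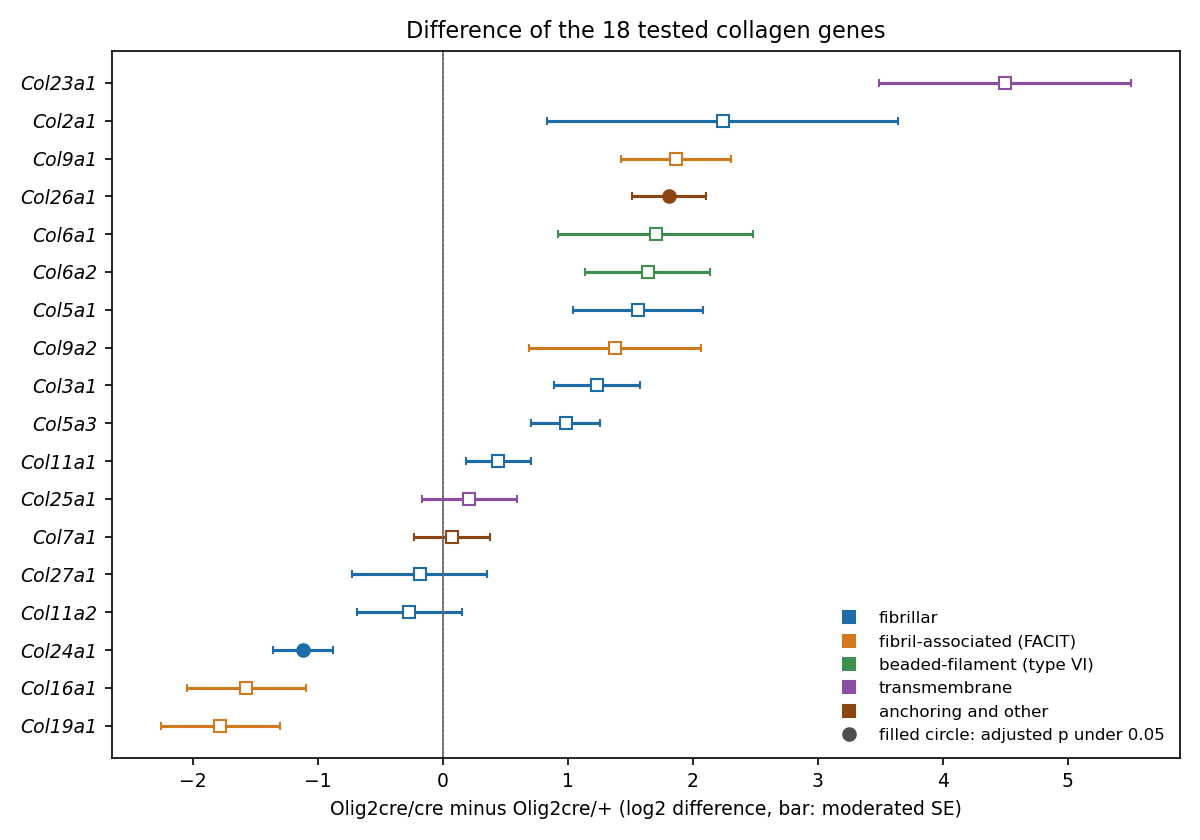
Log2 difference between Olig2cre/cre and Olig2cre/+ (x axis, bars are the moderated SE, n = 3 per group) for the 18 tested collagen genes, coloured by class, with filled circles where the limma adjusted p is under 0.05. The dotted line is the median of all tested genes at 0.00. Col26a1 at 1.81 and Col24a1 are filled. Col24a1, Col19a1, Col3a1 and Col6a2 were detected in 1 genotype alone, so their points are differences from background readings and not measured sizes, and Col23a1 has the largest difference at 4.50.

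Col26a1 was the collagen that rose. It encodes type XXVI collagen, a small secreted collagen with an EMI domain that was described in mouse testis and ovary, and lies on chromosome 5. Its probe read 7.86, 8.35 and 7.85 in the Olig2cre/+ tumours and 9.42, 10.24 and 9.83 in the Olig2cre/cre tumours. The groups did not overlap, and every tumour was detected. The difference was 1.81 ± 0.30 (SE, n = 3 per group), or 3.51-fold, with a limma adjusted p of 0.0289. It passed in 10 of 16 other settings tried, with adjusted p between 0.0167 and 0.139. These settings reuse the same arrays and are not independent checks. No background correction and the authors' table, both among the 10, rest on the same values (limma adjusted p = 0.0313 in each). As the groups do not overlap, leaving out 1 tumour could not change the direction. It did not pass without Olig2cre/+ tumours 1, 2 or 3 (adjusted p = 0.0920, 0.108 and 0.102) or without Olig2cre/cre tumour 2 (adjusted p = 0.0770). With the mean of the neuron markers as a covariate the difference was 2.06 (adjusted p = 0.139). That mean itself went largely with genotype, so this setting, here and below, can hardly tell the covariate from the genotype.

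Col24a1 was the collagen that fell. It encodes type XXIV collagen, a fibrillar chain known from developing bone and cornea in mice, and lies on chromosome 3. Its tested probe read 5.53, 6.02 and 5.99 in the Olig2cre/+ tumours and 4.68, 4.78 and 4.73 in the Olig2cre/cre tumours. It was detected in all Olig2cre/+ tumours and in no Olig2cre/cre tumour, so the fold is a bound: at least 1.36-fold lower. The limma adjusted p of 0.0496 is for the readings themselves, background readings included, and not for this bound. Col24a1 entered the test through its Olig2cre/+ detections alone, and with no detection filter its adjusted p was 0.0534. The p-values of Col3a1, Col19a1 and Col6a2 below are likewise not for their bounds. The bound compares the mean of the detected group with a floor on each array of the other group, namely the dimmest signal that still counted as detected there, or the probe's own signal where that is higher. A further Col24a1 probe, detected on 2 Olig2cre/+ arrays, read 5.24, 5.47 and 5.40 against 4.68, 4.61 and 4.56, and the last of the 3 probes was detected on no array. The call passed in 2 of 15 other settings, and leaving out any 1 tumour ended it (adjusted p = 0.0514 to 0.208). It rests on a probe close to background.

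The fibrillar class had 11 genes, of which 8 were tested, with 5 higher and 3 lower in the mean of Olig2cre/cre and a median of 0.71. The type I chains were detected in few tumours or none. Col1a1, the main chain of type I collagen, was detected in 2 tumours, at 7.39 and 6.49 in Olig2cre/cre tumours 2 and 3, while the other 4 tumours read 4.58 to 4.97. With 2 detected arrays it was not tested, and with no detection filter its difference of 1.37 had a limma adjusted p of 0.399. Its partner chain Col1a2 was detected on no array, with readings of 4.57 to 5.11, and neither was Col5a2, a chain of type V collagen, at 4.54 to 5.48.

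Col3a1, the type III chain of vessel walls and skin, read 4.60, 4.84 and 4.96 in the Olig2cre/+ tumours, where it was not detected, and 6.66, 5.44 and 6.00 in the Olig2cre/cre tumours, where it was. It was at least 1.63-fold higher and did not pass (limma adjusted p = 0.0862). A further Col3a1 probe was detected on no array, so the probes of this gene disagree.

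Type V collagen starts and limits the growth of fibrils, and both of its detected chains had higher values in Olig2cre/cre. Col5a1 was detected in every tumour, at 8.89, 9.04 and 8.11 in Olig2cre/+ and at 10.93, 10.68 and 9.12 in Olig2cre/cre. The difference of 1.56 ± 0.52 (SE) did not pass (limma adjusted p = 0.122). Olig2cre/cre tumour 3 lay just above the highest Olig2cre/+ tumour, and without it the difference was 2.13 and passed (adjusted p = 0.0160). Adding the neuron covariate gave Col5a1 a difference of 0.43, with the highest adjusted p of 16 other settings (0.821). Col5a3 read 5.55, 5.83 and 5.09 against 6.72, 6.38 and 6.32, with no overlap. Its difference of 0.98 ± 0.28 (SE) had a limma adjusted p of 0.0884 and passed in none of 15 other settings, with 0.32 without background correction.

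Col2a1, Col11a1 and Col11a2 form the chains of types II and XI in cartilage fibrils, and none of them passed the threshold. Col2a1 read 7.00, 6.32 and 5.36 in the Olig2cre/+ tumours and 5.52, 11.69 and 8.19 in the Olig2cre/cre tumours. Tumour 2 of Olig2cre/cre was 5.46 above the Olig2cre/+ mean and tumour 3 was 1.96 above it, while tumour 1 was 0.71 below it (a difference of -0.71). The other Col2a1 probe showed the same order, at 4.98, 12.11 and 8.67 in the Olig2cre/cre tumours. The mean difference of 2.24 ± 1.40 (SE) was within this spread (limma adjusted p = 0.371), and without Olig2cre/cre tumour 2 it was 0.63. The chains of type XI stayed near the limit of detection. Col11a1 differed by 0.45 ± 0.26 (SE, adjusted p = 0.332) with no overlap. The gap was narrow, from 5.45 in Olig2cre/+ tumour 1 to 5.50 in Olig2cre/cre tumour 3, and Olig2cre/+ tumour 2 was not detected. Of the 3 Col11a1 probes, 1 was detected on any array. Col11a2 differed by -0.27 ± 0.42 (SE, adjusted p = 0.740). There, Olig2cre/cre tumour 1 was the highest of all 6 tumours at 6.11, and Olig2cre/cre tumours 2 and 3 were not detected. Col27a1, a further cartilage collagen, differed by -0.18 ± 0.54 (limma adjusted p = 0.868).

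The FACIT class split in direction. It had 6 genes, of which 4 were tested, 2 with a higher and 2 with a lower mean in Olig2cre/cre. Col16a1, which encodes type XVI collagen and is on chromosome 4, was detected in every tumour. It read 12.15, 12.28 and 11.34 in the Olig2cre/+ tumours and 9.61, 11.27 and 10.17 in the Olig2cre/cre tumours. The groups were separated by a narrow gap between Olig2cre/+ tumour 3 and Olig2cre/cre tumour 2. The difference of -1.57 ± 0.47 (SE), a size of 2.97-fold, missed the threshold (limma adjusted p = 0.101), with adjusted p from 0.0288 to 0.539 over 16 other settings.

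Col19a1, a FACIT collagen that mouse interneurons of the hippocampus make and that inhibitory synapses need there, read 6.92, 7.20 and 5.35 in the Olig2cre/+ tumours. In the Olig2cre/cre tumours it read 4.68, 4.74 and 4.71 and was not detected. It was at least 2.12-fold lower in Olig2cre/cre (limma adjusted p = 0.0805), and passed without Olig2cre/+ tumour 3 (adjusted p = 0.0361, range 0.0184 to 0.321 over 15 other settings). Neuron markers were lower in the same group, as given below, and their part in the Col19a1 values was not tested.

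Type IX collagen coats type II fibrils, and its chains went with different tumours. Col9a1 read 6.23, 6.23 and 5.47 in the Olig2cre/+ tumours and 8.75, 7.47 and 7.31 in the Olig2cre/cre tumours, all detected and without overlap. The difference was 1.86 ± 0.44 (SE), or 3.64-fold (limma adjusted p = 0.0620), and it passed without Olig2cre/cre tumour 3 (adjusted p = 0.0319). It was 0.89 without background correction and on the authors' table (adjusted p = 0.113), and 0.87 with the neuron covariate (adjusted p = 0.480). The other 2 Col9a1 probes were detected on no array. Col9a2 read 8.78, 8.86 and 8.64 in Olig2cre/+ and 8.40, 11.09 and 10.92 in Olig2cre/cre: tumours 2 and 3 were 2.33 and 2.16 above the Olig2cre/+ mean and tumour 1 was below all Olig2cre/+ tumours. Its difference of 1.38 ± 0.69 (SE) did not pass (adjusted p = 0.265), and without tumour 1 it was 2.25 (adjusted p = 0.0218). Col9a3 was detected on no array. Col14a1, a FACIT of skin and tendon, was detected in 1 Olig2cre/cre tumour and was not tested.

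Type VI collagen, which links cells to the surrounding matrix, was higher in the mean of Olig2cre/cre for both tested chains, with the highest reading in tumour 2. Col6a1 read 7.45, 8.43 and 8.93 in the Olig2cre/+ tumours and 9.44, 11.74 and 8.74 in the Olig2cre/cre tumours, so tumour 3 lay within the Olig2cre/+ range. The difference was 1.70 ± 0.78 (SE, limma adjusted p = 0.228), and the other tested Col6a1 probe gave 1.66 ± 0.80 (adjusted p = 0.254). Without Olig2cre/cre tumour 2 the Col6a1 difference was 0.82. Col6a2 was not detected in Olig2cre/+, at 4.69, 4.84 and 5.19, and was detected in every Olig2cre/cre tumour, at 6.78, 7.43 and 5.43. It was at least 2.32-fold higher (adjusted p = 0.102), and passed without Olig2cre/cre tumour 3 (adjusted p = 0.0111). Col6a6 was detected on no array.

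Col23a1 had the largest difference of any tested collagen. It encodes type XXIII collagen, a transmembrane collagen whose outer part can be shed from the cell surface, and lies on chromosome 11. It read 5.11, 5.97 and 7.33 in the Olig2cre/+ tumours, of which the first was not detected, and 12.88, 9.92 and 9.09 in the Olig2cre/cre tumours. The groups did not overlap, but the values spread widely within each. The measured difference was 4.50 ± 1.01 (SE, n = 3 per group), a size of 22.6-fold, or 21.1-fold with the undetected value raised to the lowest detected signal of its array. It missed the threshold (limma adjusted p = 0.0555) and passed without Olig2cre/cre tumour 3 (5.27, adjusted p = 0.0200). Over 15 other settings the difference ran from 2.89 with the neuron covariate to 5.27 and the adjusted p from 0.0154 to 0.454. It was 3.05 without background correction (adjusted p = 0.102).

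Among the other transmembrane collagens, Col25a1, a collagen of neurons whose shed part is found in amyloid plaques, differed by 0.21 ± 0.38 (SE, limma adjusted p = 0.775), with 1.16-fold as its size. Of its 5 probes, 3 were detected on at least 1 array. Col17a1, of the junctions that fix epithelium to its base, was detected in 1 Olig2cre/cre tumour through 1 of 3 probes, and Col13a1 in no tumour. Col7a1, which forms the anchoring fibrils of skin, differed by 0.07 ± 0.30 (adjusted p = 0.912). Col28a1, known from peripheral nerve in mice, was detected in Olig2cre/cre tumours 2 and 3 at 5.41 and 7.50, while the other 4 tumours read 4.51 to 4.83. It was not tested, and with no detection filter its limma adjusted p was 0.452. Of the short-chain collagens, Col8a2, known from the cornea, was detected on 2 Olig2cre/+ arrays, with readings of 6.04, 5.29 and 5.75 against 5.02, 5.08 and 5.06. Col10a1, a marker of hypertrophic cartilage, was detected on no array.

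Among the 14 tested collagens detected in both groups, the range over the 3 Olig2cre/cre tumours was wider than that over the Olig2cre/+ tumours for 13, and it was wider for 64.7% of all genes so detected. Olig2cre/cre tumour 1 held the highest value of its group for 8 of the 14, among them Col23a1, Col5a1 and Col9a1. Tumour 2 held it for the other 6, among them Col2a1, Col6a1, Col9a2 and Col26a1, and tumour 3 for none. Over all 9794 genes detected in both groups, tumours 1, 2 and 3 held the highest value for 36.3%, 32.2% and 31.5%. The mean over the 18 genes, relative to the Olig2cre/+ mean, was 0.88, 1.15 and 0.43 in Olig2cre/cre tumours 1, 2 and 3, and 0.01, 0.16 and -0.17 in the Olig2cre/+ tumours.

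**Figure D3:**
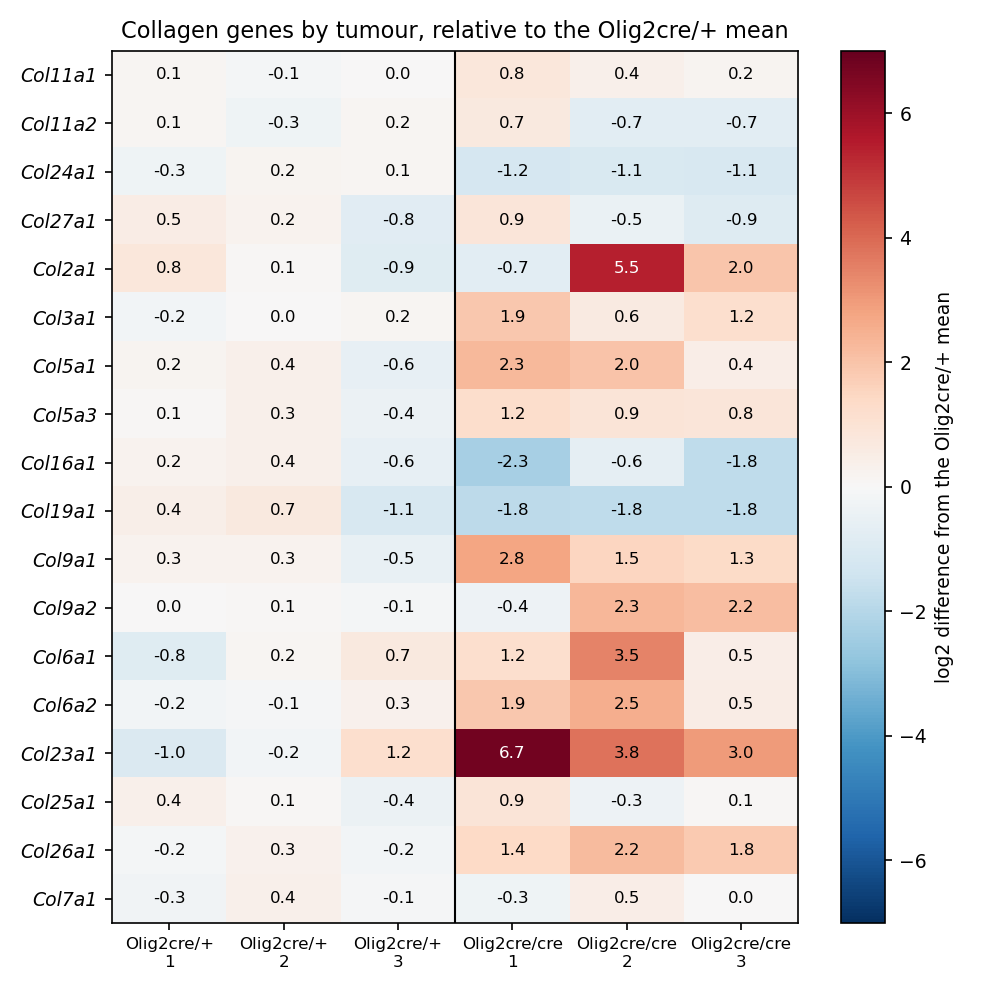
Log2 difference from the Olig2cre/+ mean (colour and printed value) of the 18 tested collagen genes (rows) in each of the 6 tumours (columns, numbered by genotype). Col23a1 is highest in Olig2cre/cre tumour 1 and Col2a1 in Olig2cre/cre tumour 2, while Col24a1 and Col19a1 are below the Olig2cre/+ mean in each Olig2cre/cre tumour.

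The basement membrane collagens were taken as the nearest comparison. Of their 8 genes, 5 were tested and 3 rose, where 2.83% of all genes tested rose. Among the 3, Col15a1 was detected in no Olig2cre/+ tumour and entered the test through the Olig2cre/cre tumours alone. The median of the 5 was 2.61, or 2.09 with 1 gene at its bound. Their mean relative to Olig2cre/+ was 2.38, 1.78 and 1.93 in the Olig2cre/cre tumours. The difference between these medians and those of the other collagens was not tested.

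Collagen chains are hydroxylated, glycosylated and folded in the endoplasmic reticulum before export. Of 15 tested genes of this machinery, 4 rose and none fell, 13 had a higher mean in Olig2cre/cre, and the median difference was 0.94. Of all genes tested, 2.83% rose and 1.95% fell. At an unadjusted p under 0.05, 8 of the 15 were higher and 0 lower, where 12.2% and 13.8% of all genes tested were. Serpinh1, the collagen chaperone HSP47, read 6.80, 7.53 and 6.79 in Olig2cre/+ and 9.82, 10.35 and 8.49 in Olig2cre/cre, a 5.71-fold rise (limma adjusted p = 0.0428). Crtap and P3h3, of the prolyl 3-hydroxylase family and its complexes, rose 4.03-fold and 3.89-fold (adjusted p = 0.0310 and 0.0372), and a further Crtap probe 4.33-fold (adjusted p = 0.0300). Fkbp14, a peptidyl-prolyl isomerase that binds type III and VI collagen, rose 3.85-fold (adjusted p = 0.0179). The groups did not overlap for these 4 genes. The number that rose was 0 to 7 over 16 other settings, and it was 0 without any 1 of the Olig2cre/+ tumours, without Olig2cre/cre tumour 2, or with the neuron covariate.

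Of 5 tested genes of procollagen export and cleavage, 1 rose: Sec24d, a coat protein of the vesicles that carry procollagen, at 6.08-fold (limma adjusted p = 0.0428), or 5.94-fold with its 1 undetected Olig2cre/+ value raised. No gene of this list passed without Olig2cre/+ tumour 1, 2 or 3 or Olig2cre/cre tumour 1. Nor did any pass without background correction, on the authors' table, with no detection filter or with the neuron covariate. Pcolce, an enhancer of procollagen cleavage, read 7.09, 6.90 and 6.97 against 10.50, 8.29 and 9.45 and missed the threshold (adjusted p = 0.0503). Of 9 genes of cross-linking and fibril assembly, 2 rose and none fell, with a median of 0.60. Beside both lists, 2.83% of all genes tested rose and 1.95% fell. Loxl1, a lysyl oxidase that cross-links elastin and collagen, rose 16.2-fold, from 6.42, 6.93 and 7.57 to 11.85, 11.15 and 9.98 (adjusted p = 0.0172). The collagen-binding proteoglycan Bgn rose 13.6-fold (limma adjusted p = 0.00557). Of this list 0 rose without Olig2cre/+ tumour 2, and 1 without Olig2cre/+ tumour 1 or 3, without Olig2cre/cre tumour 2 or with the neuron covariate. Lum and Postn, which bind collagen fibrils of connective tissue, were not tested.

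Of 7 tested collagen-degrading proteases, 2 rose, none fell and all had a higher mean in Olig2cre/cre, with a median of 0.80. Of all genes tested, 2.83% rose and 1.95% fell. Mmp14, a membrane-bound collagenase, rose 6.02-fold, from 10.19, 9.51 and 9.45 to 12.84, 12.11 and 11.98 (limma adjusted p = 0.0172). Mmp2, a gelatinase that Mmp14 activates, rose 13.3-fold, from 7.95, 8.03 and 7.43 to 12.03, 12.78 and 9.80 (adjusted p = 0.0404). Of these proteases 0 rose without Olig2cre/+ tumour 1, 2 or 3, without Olig2cre/cre tumour 2 or with the neuron covariate. Only 1 rose without Olig2cre/cre tumour 1, without background correction, on the authors' table or with no detection filter. Of 7 tested collagen receptors none passed with limma, with a median of 0.38. At an unadjusted p under 0.05, 2 of the 7 were higher and 1 lower, beside the same background of 12.2% and 13.8%. Over 16 other settings 0 to 1 of these receptors passed in each direction. Itga1, the integrin chain that pairs with Itgb1 to bind collagen, read 6.12, 5.84 and 4.57 against 8.67, 7.62 and 7.31 (limma adjusted p = 0.0523), and Itgb1 differed by 1.11 ± 0.34 (SE, adjusted p = 0.105).

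Markers of other cell types moved with the genotypes too, relative to the Olig2cre/+ mean of each list. The 9 tested endothelial markers had means of 2.00, 1.11 and 1.46 in Olig2cre/cre tumours 1, 2 and 3 (-0.25 to 0.16 in Olig2cre/+), and the 9 pericyte and smooth muscle markers 0.80, 0.83 and 0.68 (-0.25 to 0.35). Of the endothelial markers 8 were higher and 1 lower, and of the pericyte and smooth muscle markers 6 were higher and 3 lower. The 12 fibroblast markers had -0.62, -0.42 and 0.71 against -0.57 to 0.51, so their means overlapped between the genotypes. Single fibroblast markers went both ways, 6 higher and 6 lower in Olig2cre/cre, with differences from -2.76 to 2.03. Dpt and Cemip were detected on no array. The 4 chondrocyte markers had 0.89, 0.72 and -0.09 (-0.38 to 0.19), with Cnmd and Matn3 on no array. Of these 4, 3 were higher and 1 lower, from -2.66 to 3.06. The 7 Schwann cell and neural crest markers had 3.37, 3.51 and 2.20 (-0.12 to 0.13). Of these 7, 6 were higher and 1 lower, from -0.77 to 5.32, and 2 were detected in 1 genotype alone. The 10 microglia and macrophage markers had 2.52, 0.71 and 0.86 (-0.23 to 0.20). Neuron markers had -4.76, -2.41 and -0.70 (11 genes, -0.84 to 0.87 in Olig2cre/+), and the 9 oligodendrocyte markers -4.97, -4.06 and -1.40 (-0.18 to 0.11). The part of these cell types in the collagen values was not tested. With the neuron marker mean as a covariate, the median collagen difference was 0.54 in place of 1.11. The covariate was 10.16, 10.97 and 11.88 in the Olig2cre/+ tumours and 6.25, 8.59 and 10.30 in the Olig2cre/cre tumours. It can thus hardly be told apart from genotype, and the change is no measure of the part of neurons.

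**Figure D4:**
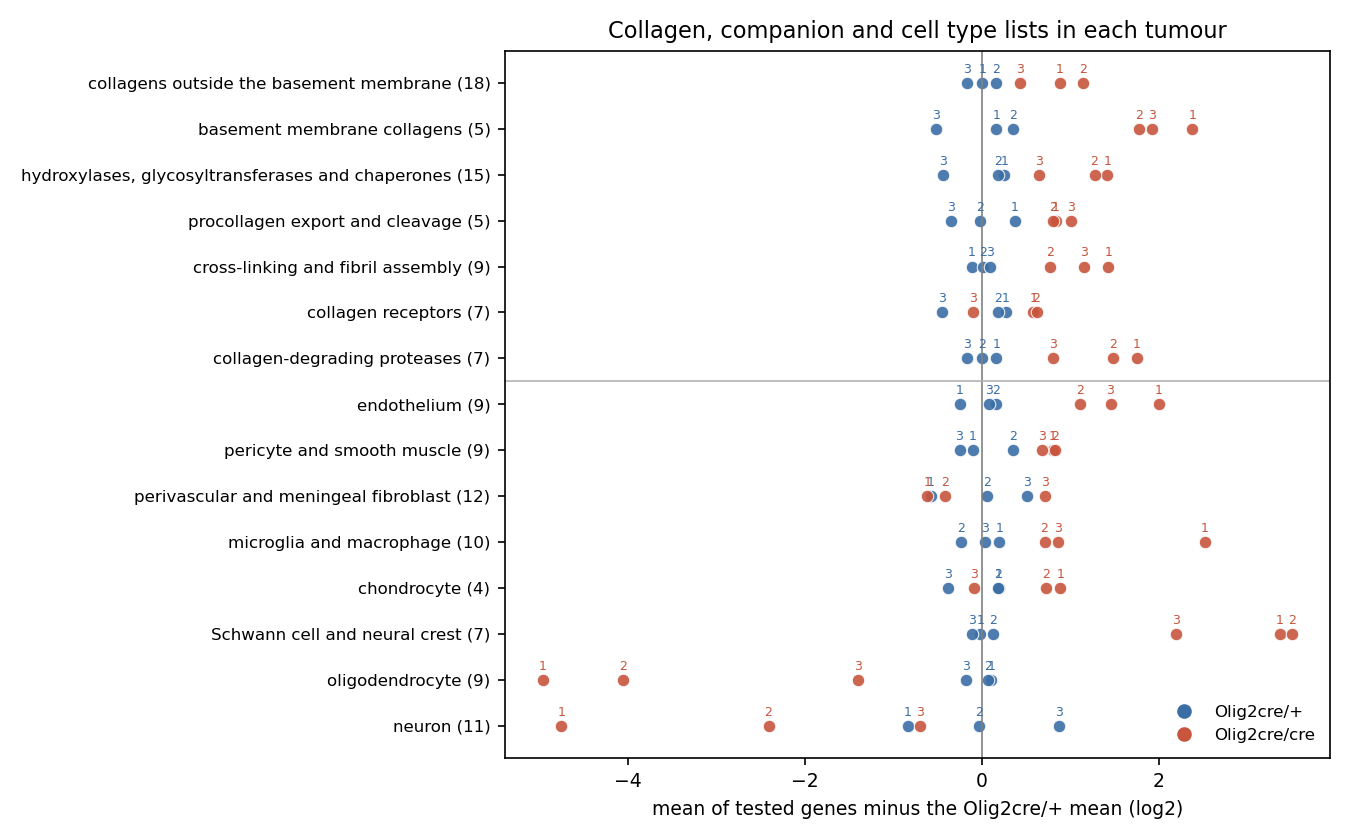
Mean log2 difference from the Olig2cre/+ mean (x axis) of the tested genes in each list (rows, number of genes in brackets) for the 3 Olig2cre/+ tumours (blue) and the 3 Olig2cre/cre tumours (red), with the tumour number above each point. Collagens and their processing genes are above the line and cell type markers below it. The means of the fibroblast markers overlap between the genotypes, with single markers in both directions, while those of the endothelial markers lie at 1.11 to 2.00 in Olig2cre/cre.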

How the data were processed

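Total RNA of 6 brain tumours was labelled as biotinylated cRNA and hybridised to Illumina arrays, per the labels' protocols. The authors deposited a linear signal intensity per probe with no normalization between arrays and a detection p-value beside each, per the file headers. No slide or scan date was found in the labels or files, so batches were not examined. A second deposited table holds intensity values that equal the quantile-normalized signals, with no difference above 3.33e-08%. In it, numbers 1 and 3 are exchanged within both genotypes, and the numbers used are those of the signal table.

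Signals were corrected with normexp (controls inferred from the detection p-values, offset 16) and quantile-normalized to log2 intensity (neqc, limma 3.58.1, R 4.3.3). The 14606 probes detected at p under 0.05 on at least 3 of 6 arrays were fitted with genotype as the only term (lmFit, eBayes, two-sided). Adjustment was by Benjamini-Hochberg over all of them, with a threshold of 0.05. A gene was represented by its tested probe with the highest mean. Probes take their names from the platform's annotation, updated through GRCm38.p6 gene identifiers. In simulated data with the spread of the 14606 probes, 1.5%, 56.2% and 81.7% of log2 shifts of 1, 2 and 4 were called, and 3 of 98 calls were false. The number of arrays limits the precision.

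Same-numbered tumours of the 2 genotypes were not taken as pairs. Collagen members passing the threshold, all tested members of the fibrillar class and the up to 3 smallest p-values of each other class are named in full, as are up to 4 passing genes of each companion list, or, failing any, the 2 genes of smallest p. Genes most like Col1a1 were to be listed, but its probe was not tested. Other genes were named after their values were seen. The members and lists were chosen with earlier results of these data known.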

Additional observations from a re-analysis of the deposited data

How the results depend on the processing

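In place of 645 probes passing, 411 passed on the authors' normalized table and without background correction, 230 with no detection filter, 1382 with the replicate block, 1860 with array weights, 28 with the neuron marker mean as a covariate, and 9 to 1922 when 1 tumour was left out. The share of all called probes that were higher in Olig2cre/cre moved from 60% to 43.4% with the replicate block, 44.4% without Olig2cre/cre tumour 3 and 49.3% without Olig2cre/+ tumour 3, and to 70.1% for probes detected on all 6 arrays and 72.4% without Olig2cre/cre tumour 2. The number of collagens that rose, 1, became 0 with no detection filter and with the covariate, 3 with the replicate block, 5 with array weights and 0 to 5 when 1 tumour was left out (5 without Olig2cre/cre tumour 3). The number that fell, 1, became 3 with array weights and 0 with no background correction, an offset of 50, the authors' table, cyclic loess, no detection filter, probes detected on all 6 arrays, the replicate block and the covariate, and was 0 to 1 when 1 tumour was left out. The median collagen difference of 1.11 became 0.35 on the authors' table and without background correction, 0.67 with an offset of 50, 0.41 with no detection filter, 1.70 over the 7 genes detected on all 6 arrays, 0.54 with the covariate and 0.72 to 1.20 when 1 tumour was left out. The cause was not tested, except that fewer genes were in the fit of probes detected on all 6 arrays. The fit with no detection filter held 29 collagens in place of 18, so these medians are over unlike sets of genes. Signs changed for 3 genes that had not passed: Col7a1 was at -0.14 with array weights and -0.06 and -0.13 without Olig2cre/+ tumour 1 or Olig2cre/cre tumour 2 (-0.13 to 0.26 when 1 tumour was left out). Col25a1 was at -0.46 with the covariate and -0.01 and -0.13 without Olig2cre/+ tumour 3 or Olig2cre/cre tumour 1 (-0.13 to 0.49). Col27a1 was at 0.08 and 0.19 without Olig2cre/+ tumour 1 or Olig2cre/cre tumour 3 (-0.70 to 0.19). Averaging the probes of a gene changed neither collagen count. The array weights were 7.30 for Olig2cre/+ tumour 2 and 0.47 to 1.19 for the other tumours, so that setting leans on 1 array. The deviations of same-numbered tumours from their group means correlated at 0.19, 0.02 and 0.30, and those of differently numbered tumours at -0.30 to 0.10. Same-numbered tumours also share an age in the labels, so these values do not settle whether they are pairs. The labels name no pairing, and the main fit used none. The replicate block ended the call of Col24a1 (adjusted p = 0.0548) and brought Col5a1 and Col9a1 past the threshold (adjusted p = 0.0382 and 0.0326). Readings near background, as for Col24a1, Col3a1 and Col11a1, limit what these arrays resolve.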
